A study of Mus musculus with 230 samples.

Results

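The 9 transcription factors followed here in the RNA libraries of mouse dorsal root ganglion neurons, Sox11, Klf4, Klf6, Klf7, Klf9, Smad1, Nfil3, Cebpd and Myc, have been tied to axon growth or to the response to nerve injury. They were chosen by name, with earlier results of these data known, and are 9 of the 53278 genes counted. The mice were C57BL/6 X CAST/Ei crosses, and each sample is labelled as injured, at the sciatic nerve, or as intact. Whether injured and intact samples came from the same mice is not stated in the labels used here. Neurons from the L4 and L5 ganglia were dissociated with enzymes and picked by hand, and their RNA was made into SMART-seq2 libraries, which cover whole transcripts and carry no molecular identifiers. The 18 low-input libraries form 6 groups of 3, an injured and an intact group for each age of 1, 8 and 12 months. Single cells, 69 in all, form 4 more groups: at 1 month 21 cells are labelled injured and 18 intact, and at 1 year 22 and 8. The cross is shared by all groups, and the labels used here give no time between injury and collection, no number of neurons per low-input library, and no animal for any library or cell.

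Peripheral sensory neurons can regrow a cut axon, and this growth needs new transcription in the cell body. Sox11 is a SoxC factor of developing neurons that has been tied to axon growth of adult sensory neurons. The Krüppel-like factors bind GC-rich and CACCC sequences and have been sorted into members that favour neurite growth, among them Klf6 and Klf7, and members that restrain it, among them Klf4 and Klf9. Smad1 carries bone morphogenetic protein (BMP) signals from receptors to the nucleus. Nfil3 and Cebpd are basic leucine zipper factors. Nfil3 is known as a repressor that competes with CREB at growth-related genes, and Cebpd as a factor of stress and inflammatory responses. Myc is a basic helix-loop-helix factor that drives growth and biosynthesis.

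Sox11, Klf6 and Smad1 were higher in every injured library than in every intact library of the same age, at 1, 8 and 12 months. Across the ages, Sox11 averaged 25.1 ± 14.4 CPM after injury and 3.29 ± 2.90 CPM without it (mean ± SD, n = 9 each). Klf6 averaged 45.3 ± 15.9 against 13.4 ± 7.06 CPM, and Smad1 25.1 ± 8.05 against 9.75 ± 3.88 CPM. Nfil3 averaged 7.64 ± 4.19 against 2.10 ± 1.67 CPM. CPM are counts scaled to a common size of the library's endogenous total, after edgeR's TMM normalization. The 5 other factors did not pass the test between injured and intact neurons: Cebpd, Klf7, Klf9 and Myc were tested, and Klf4 was too low to be tested.

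The low-input libraries held 7531967 to 19443627 endogenous fragment counts (median 10890400), of which 29.4% to 93.8% fell on 1 feature, CT010467.1. That share was 29.4% to 59.7% in injured libraries (median 39%) and 40.4% to 93.8% in intact libraries (median 65.7%), so it moved with the injury. One library, the second intact one of 12 months, was unlike the rest, with 770328 counts outside that feature, 40.5% of them mitochondrial. All 12 libraries at 1 and 8 months held counts of the Y-linked genes searched, and 0 of the 6 libraries at 12 months did, so age and sex cannot be told apart at 12 months. The injury labels were checked with Atf3 and Sprr1a, genes that sensory neurons switch on after axotomy: Atf3 averaged 299.6 ± 144 CPM after injury against 5.21 ± 5.57 CPM without it, and Sprr1a 510.2 ± 313 against 0.212 ± 0.266 CPM. All 8 neuron markers listed for the tissue were tested, and none was at 0 in any library. Tubb3 was called higher after injury (0.99, log2; edgeR adjusted p = 0.0236) and Rbfox3 lower (-1.16; adjusted p = 0.0420), and the others were not called and lay under 0, from -0.54 for Pou4f1 to -0.03 for Avil. Their summed level, of which Tubb3 was the largest part, ran from 5489 to 7901 CPM after injury and from 3605 to 7272 CPM without it. In bulk libraries, fewer cells of a type and less RNA per cell cannot be told apart.

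Levels were compared between genes per kilobase of exon (CPM per kb, mean ± SD over 9 libraries). In intact neurons the order ran from Klf7 at 13.8 ± 4.52 through Klf9 at 7.30 ± 4.39, Myc at 3.86 ± 2.42, Klf6 at 3.06 ± 1.61, Smad1 at 1.56 ± 0.620, Nfil3 at 1.04 ± 0.825 and Sox11 at 0.395 ± 0.349 to Cebpd at 0.159 ± 0.167 and Klf4 at 0.0722 ± 0.0958. The mean ± SD ranges of all neighbours in that order overlapped. In injured neurons Klf7 was again highest at 17.3 ± 3.58 CPM per kb, followed by Klf6 at 10.3 ± 3.63, Klf9 at 7.18 ± 2.26, Myc at 4.71 ± 1.25, Smad1 at 4.01 ± 1.29, Nfil3 at 3.77 ± 2.07 and Sox11 at 3.02 ± 1.74. Cebpd at 0.470 ± 0.397 and Klf4 at 0.105 ± 0.0815 were again lowest. In this order only Sox11 and Cebpd were separated by more than their SDs. Klf6 moved past Myc and Klf9 in this order, and Sox11 kept its place under Nfil3 in both.

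**Figure D1:**
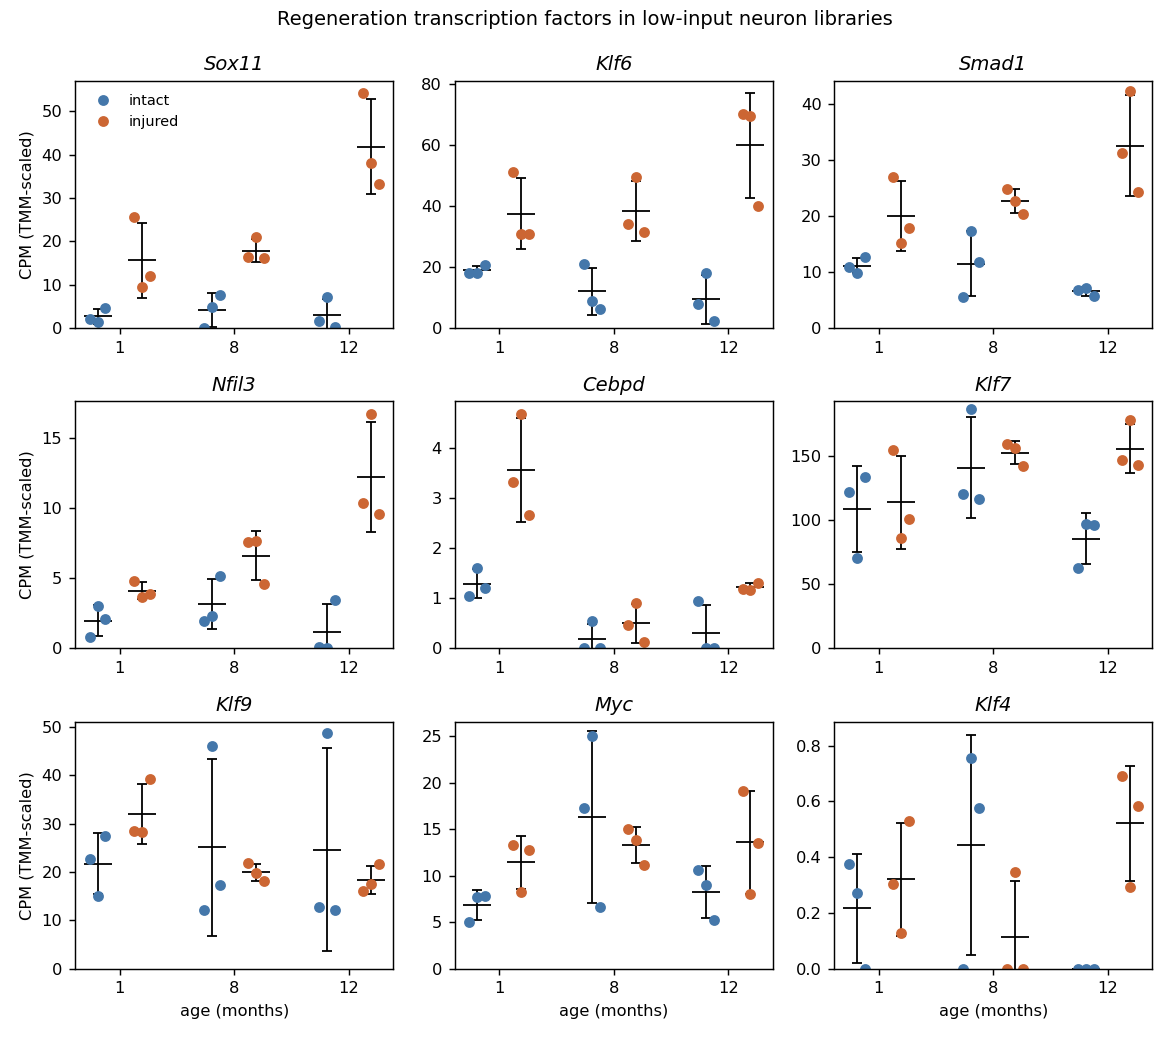
Each panel plots 1 factor, with CPM (TMM-scaled, linear axis from 0) against age in months; points are the 3 libraries of a group, intact in blue and injured in orange, and bars are the mean ± SD. Sox11, Klf6 and Smad1 show injured libraries above all intact libraries of their age, while Klf7, Klf9 and Myc overlap at 8 months.

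Sox11 (GRCm38 chromosome 12, 27334264 to 27342574, minus strand, 1 exon of 8311 bp) had the largest averaged change of the 8 factors in the fit of all 18 libraries. The intact libraries, in the order of their replicate numbers, read 2.02, 1.30 and 4.67 CPM at 1 month, 0, 4.86 and 7.64 CPM at 8 months, and 1.63, 7.22 and 0.217 CPM at 12 months. The injured libraries read 25.5, 9.49 and 11.9 CPM at 1 month, 16.5, 20.9 and 16.2 CPM at 8 months, and 54.2, 38 and 33.3 CPM at 12 months. No injured library overlapped with an intact one of any age, and the 3 injured libraries of 12 months were the highest of all. The intact 12-month library at 7.22 CPM rested on 4 counts. Without the third intact replicate at 12 months Nfil3 was above it (3.06 against 2.87, log2), and without the first intact replicate there Cebpd was (3.33 against 3.13). Averaged over ages with equal weights, Sox11 was higher in injured neurons by 3.11 ± 0.58 on the log2 scale (± SE; adjusted p = 0.00389, edgeR's quasi-likelihood test with Benjamini-Hochberg adjustment over 14212 genes). Fold changes carry edgeR's small prior count, which draws low genes towards 0.

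Klf6 (chromosome 13, 5861482 to 5870394, plus strand) had intact values of 18.1, 18 and 20.7 CPM at 1 month, 20.8, 8.97 and 6.16 CPM at 8 months, and 7.70, 18.1 and 2.39 CPM at 12 months. Its injured values were 51, 30.7 and 30.7 CPM at 1 month, 34.2, 49.6 and 31.5 CPM at 8 months, and 70.3, 69.4 and 39.9 CPM at 12 months. The lowest injured library lay above the highest intact library of any age. The intact 12-month library at 18.1 CPM rested on 10 counts. The averaged change was 1.89 ± 0.30 (log2; edgeR adjusted p = 0.00116).

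Smad1 (chromosome 8, 79338395 to 79399518, minus strand) had intact values of 10.9, 9.88 and 12.7 CPM at 1 month, 5.56, 17.3 and 11.7 CPM at 8 months, and 6.76, 7.22 and 5.65 CPM at 12 months. The injured libraries held 27.1, 15.2 and 17.8 CPM at 1 month, 24.9, 22.8 and 20.5 CPM at 8 months, and 31.3, 42.4 and 24.3 CPM at 12 months. The groups of each age did not overlap, although the second intact library at 8 months (17.3 CPM) was above the second injured library at 1 month (15.2 CPM). The intact 12-month library at 7.22 CPM held only 4 counts of Smad1. The averaged change was 1.39 ± 0.21 (log2; edgeR adjusted p = 0.000831).

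Nfil3 (chromosome 13, 52967209 to 52981073, minus strand) was a low gene. Intact libraries held 0.825, 3.04 and 2.08 CPM at 1 month, 1.96, 2.27 and 5.17 CPM at 8 months, and 0.0856, 0 and 3.48 CPM at 12 months. Injured libraries held 4.78, 3.65 and 3.89 CPM at 1 month, 7.59, 7.64 and 4.57 CPM at 8 months, and 10.4, 16.7 and 9.55 CPM at 12 months. Groups overlapped at 8 months, through the third replicates, and at no other age. The averaged change was 1.73 ± 0.46 (log2; edgeR adjusted p = 0.0317). This call lay close to the threshold and was lost without any 1 of 7 libraries. These were the first and the third injured and intact replicates at 1 month and the second injured replicate at 8 months. The others were the first and the second injured replicates at 12 months. In those fits the change stayed at 1.64 to 1.77 (log2; edgeR adjusted p 0.0510 to 0.0753). Without the third intact replicate at 12 months, the change was 3.06 (edgeR adjusted p = 0.000533).

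These 4 called factors are 4 of the 8 tested, and all 4 were higher after injury. Over all 14212 genes tested, 6.18% were called in the averaged comparison in either direction and 5.11% were called higher. The median change of the 8 tested factors was 1.41 (log2), and that of all genes was 0.03. The 3 factors without overlap at each of the 3 ages stand beside 1.83% of all genes tested with every injured library above every intact library at each age. Because the factors were chosen with earlier results of these data known, these comparisons with all genes are descriptions and not tests. The share of all genes without overlap at a single age is not given here. A lack of overlap at 1 age alone is therefore only a description of the libraries. With the share of CT010467.1 as a covariate, the changes were 3.75 for Sox11, 2.23 for Klf6, 1.70 for Smad1 and 3.17 for Nfil3 (log2), and edgeR's adjusted p became 0.257, 0.189, 0.167 and 0.280, so that 0 of the 4 calls remained. Leaving out the second intact 12-month library gave changes of 3.31, 2.06, 1.41 and 1.68, and all 4 stayed called (edgeR adjusted p 0.00364, 0.000385, 0.000982 and 0.0313).

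The RefSeq promoters of the 4 called factors, with that of Klf9 as a factor whose injury difference lay near 0, are shown here as the 250 bases before the RefSeq start site (GRCm38.p6, 5′ to 3′ on the gene's strand). Capitals mark matches on either strand to the GC box GGGCGG, the E-box CACGTG, the AP-1 letters TGANTCA or the SOX letters AACAAT. The windows are chr12:27342719-27342968, minus strand (Sox11), chr13:5861239-5861488, plus strand (Klf6), chr8:79399429-79399678, minus strand (Smad1), chr13:52981040-52981289, minus strand (Nfil3) and chr19:23140976-23141225, plus strand (Klf9).
Sox11: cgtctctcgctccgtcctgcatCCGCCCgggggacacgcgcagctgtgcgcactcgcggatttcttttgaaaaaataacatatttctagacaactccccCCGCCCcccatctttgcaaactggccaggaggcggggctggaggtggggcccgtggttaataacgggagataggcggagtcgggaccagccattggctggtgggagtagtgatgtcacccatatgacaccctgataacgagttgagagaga
Klf6: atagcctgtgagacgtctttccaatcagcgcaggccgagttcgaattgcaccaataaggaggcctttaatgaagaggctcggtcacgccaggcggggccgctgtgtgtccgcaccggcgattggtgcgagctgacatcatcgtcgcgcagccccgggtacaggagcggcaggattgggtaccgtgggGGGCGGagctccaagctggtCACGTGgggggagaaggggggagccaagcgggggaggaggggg
Smad1: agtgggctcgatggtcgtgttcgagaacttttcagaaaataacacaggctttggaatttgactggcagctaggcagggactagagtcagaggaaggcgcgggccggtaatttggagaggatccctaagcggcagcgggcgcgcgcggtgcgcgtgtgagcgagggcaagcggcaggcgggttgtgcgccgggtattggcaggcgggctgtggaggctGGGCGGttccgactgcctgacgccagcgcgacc
Nfil3: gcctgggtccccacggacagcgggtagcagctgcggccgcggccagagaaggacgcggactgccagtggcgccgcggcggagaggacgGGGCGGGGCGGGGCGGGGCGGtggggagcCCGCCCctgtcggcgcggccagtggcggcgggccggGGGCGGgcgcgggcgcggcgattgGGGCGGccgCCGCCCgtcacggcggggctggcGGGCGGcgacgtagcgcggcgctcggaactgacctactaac
Klf9: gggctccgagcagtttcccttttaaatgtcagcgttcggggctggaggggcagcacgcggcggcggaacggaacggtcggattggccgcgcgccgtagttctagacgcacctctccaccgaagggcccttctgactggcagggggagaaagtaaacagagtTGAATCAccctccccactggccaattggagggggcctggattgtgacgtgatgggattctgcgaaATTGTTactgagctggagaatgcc

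RefSeq promoters were found for 7 of the 9 factors, all but Cebpd and Myc, and motifs were searched on both strands of 300 bases, from 250 before to 50 after the start. The GC box, a site of SP and KLF proteins, occurred in 6 of the 7, with Klf9 the exception, and in 35.7% of all 32851 promoters of the table. The factors' promoters were 58.3% to 81.7% G or C, and the median of all promoters was 52.7%. The KLF letters CACCC were in 3 of the 7 (Sox11, Klf7 and Klf9) and in 57.5% of all promoters. Nfil3 had 9 GC boxes, some of them overlapping. The E-box, the site of MYC and its partners, was in Klf6 and Klf4 (7.15% of all promoters), at position -43 from the start in Klf6. The AP-1 letters, searched with any base at the centre, were only in Klf9 among the 7, at position -89 (7.81% of all promoters). The match there reads TGAATCA, whereas the usual site of Fos and Jun proteins has C or G at the centre. The share of all promoters counts the same looser letters. The SOX letters were also only in Klf9, at position -24 (10.7%). The C/EBP letters TTGCNNAA were in Sox11 alone, just after the start and outside the printed stretch (10.8% of all promoters). The CRE letters TGACGTCA and the SMAD letters GTCTAGAC and CAGAC were in 0 of the 7 windows, and in 1.79%, 0.213% and 49.6% of all promoters. A match is a run of letters, not a measured site.

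Cebpd (chromosome 16, 15887286 to 15891031, plus strand) was near the limit of detection. Intact libraries held 1.05, 1.61 and 1.21 CPM at 1 month, 0, 0.541 and 0 CPM at 8 months, and 0.942, 0 and 0 CPM at 12 months. Injured libraries held 3.33, 4.68 and 2.65 CPM at 1 month, 0.463, 0.903 and 0.137 CPM at 8 months, and 1.19, 1.17 and 1.31 CPM at 12 months. The groups were separate at 1 and 12 months and overlapped at 8 months, and the libraries of 1 month were the highest in both conditions. The averaged difference was 1.43 ± 0.65 (log2; edgeR adjusted p = 0.227). Scaling to the spike-ins gave 3.71 (edgeR adjusted p = 0.000553), but there 13493 genes were called, against 878 in the main fit. The median of all genes was 2.90 on that scale and Cebpd lay 0.82 above it. The spike-in call is therefore not read as a result about Cebpd. Under TMM scaling the averaged difference was called when the second intact replicate at 8 months was left out (2.85, edgeR adjusted p = 0.0263). Without the first intact replicate at 12 months it was 3.33 (edgeR adjusted p = 0.0694). Exons of Cebpd overlap those of Spidr on the other strand by 559 bp and the counting ignored strand, so its values are uncertain. Spidr itself averaged 0.738 ± 0.393 CPM after injury and 0.494 ± 0.705 CPM without it.

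Klf7 (chromosome 1, 64029447 to 64122282, minus strand) was the most abundant of the 9. Its intact values were 122, 70.5 and 134 CPM at 1 month, 120.2, 187 and 117 CPM at 8 months, and 63.1, 97.5 and 96.7 CPM at 12 months. Its injured values were 155, 86.1 and 101 CPM at 1 month, 159.6, 156 and 142 CPM at 8 months, and 147, 178 and 143 CPM at 12 months. The groups overlapped at 1 and 8 months and were separate at 12 months, where the difference was 0.87 ± 0.31 (log2; edgeR adjusted p = 0.139). The averaged difference was 0.35 ± 0.18 (log2; edgeR adjusted p = 0.281), with a 95% interval from -0.04 to 0.74. Exons of Klf7 overlap those of Gm26649 on the other strand by 3196 bp. Gm26649 had 0 CPM in all 18 libraries, and since reads of the shared stretch cannot be assigned without strand, Klf7 values are uncertain to that extent.

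Klf9 (chromosome 19, 23141226 to 23166911, plus strand), a factor that responds to thyroid and glucocorticoid hormones, had intact values of 22.6, 15.1 and 27.5 CPM at 1 month, 12.1, 45.9 and 17.3 CPM at 8 months, and 12.8, 48.8 and 12.2 CPM at 12 months. The injured values were 28.6, 28.3 and 39.2 CPM at 1 month, 21.8, 19.7 and 18.2 CPM at 8 months, and 16, 17.5 and 21.6 CPM at 12 months. Injured libraries were above intact ones at 1 month, and at both later ages 1 intact library, the second replicate, was far above all others. At 12 months that library was the one with 770328 counts outside CT010467.1, and its 48.8 CPM rested on 27 counts. The averaged difference was -0.01 ± 0.29 (log2, edgeR adjusted p = 0.998) and had no stable sign: it was 0.26 without the second intact replicate at 12 months and 2.90 under scaling to the spike-ins. On the spike-in scale Klf9 lay 0.0082 above the median of all genes.

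Myc (chromosome 15, 61985391 to 61990374, plus strand) held 5.02, 7.69 and 7.84 CPM in intact libraries at 1 month, 17.3, 25 and 6.65 CPM at 8 months, and 10.6, 9.03 and 5.22 CPM at 12 months. In injured libraries it held 13.3, 8.20 and 12.8 CPM at 1 month, 15, 13.8 and 11.2 CPM at 8 months, and 19.1, 8.08 and 13.6 CPM at 12 months. The intact 12-month library at 9.03 CPM held only 5 counts of Myc. Injured libraries were above intact ones at 1 month only, and the averaged difference was 0.39 ± 0.26 (log2; edgeR adjusted p = 0.436).

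Klf4 (chromosome 4, 55527143 to 55532466, minus strand) did not pass the filter on low counts. No library held more than 11 counts, and the 9 libraries of a condition held 42 counts after injury and 27 without. Its levels were 0.375, 0.273 and 0 CPM in intact libraries at 1 month, 0, 0.757 and 0.575 CPM at 8 months, and 0 CPM in all 3 at 12 months. Injured libraries held 0.303, 0.128 and 0.530 CPM at 1 month, 0, 0.347 and 0 CPM at 8 months, and 0.691, 0.293 and 0.583 CPM at 12 months. The groups overlapped at 1 and 8 months and were separate at 12 months. In the 17 alternatives whose filter kept Klf4 it was not called: edgeR's adjusted p ran from 0.195 to 0.434 at 12 months, where every intact library was at 0, and from 0.423 upwards in the average.

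**Figure D2:**
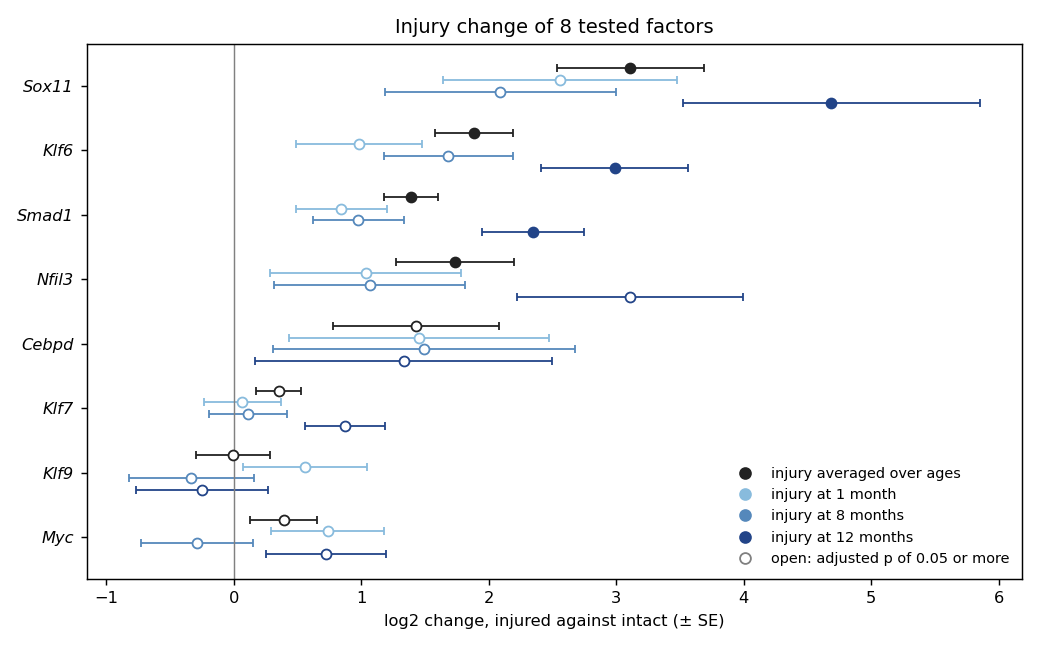
The log2 change between injured and intact libraries (edgeR, points, with SE as bars) is plotted for the 8 tested factors, for the average over ages in black and for each age in blue, from light (1 month) to dark (12 months). Filled points passed an adjusted p of 0.05: Sox11, Klf6, Smad1 and Nfil3 in the average, and Sox11, Klf6 and Smad1 at 12 months.

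By age, the factors were called at 12 months only. There 3 of the 8 tested factors were called, all higher after injury, beside 2.99% of all genes tested. The changes were 4.69 ± 1.17 for Sox11 (log2; edgeR adjusted p = 0.0408), 2.99 ± 0.58 for Klf6 (edgeR adjusted p = 0.0130) and 2.35 ± 0.40 for Smad1 (edgeR adjusted p = 0.00576). Nfil3 stood at 3.1 ± 0.89 (edgeR adjusted p = 0.0682) and was called by DESeq2 (adjusted p = 0.00606), by limma-voom (4.86, adjusted p = 0.0289), without a filter (edgeR adjusted p = 0.00341), under scaling to the spike-ins (edgeR adjusted p = 0.000157), and without the third intact replicate at 12 months, its highest intact library there (7.09, edgeR adjusted p = 0.00568). Under the spike-in scaling the median of all genes rose as well, and Nfil3 lay 3.36 (log2) above it. The Sox11 call was lost without any 1 of 11 libraries (log2 3.95 to 4.80, edgeR adjusted p 0.0504 to 0.136): all injured replicates at 1 and 12 months, the second and the third injured at 8 months, the second intact at 1 month, and the first and the third intact at 12 months. With limma-voom the adjusted p for Sox11 was 0.0618, and the 3 factors called by that tool were Klf6, Smad1 and Nfil3. The Klf6 call was lost without the second injured replicate at 12 months (2.86, edgeR adjusted p = 0.0530). When only the 6 libraries of 12 months were fitted, 0 of the 3 calls remained (edgeR adjusted p 0.0728, 0.103 and 0.0598). With the share of CT010467.1 as a covariate 0 remained as well (0.331, 0.266 and 0.223). The share of all genes called in these alternative fits of the 12-month comparison is not given here.

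At 1 month edgeR called 0 of the 8 factors, as did DESeq2 and limma-voom, and 2 had an unadjusted p under 0.05, beside 0.232% of all genes called. The differences were 2.56 ± 0.92 for Sox11 (log2; edgeR adjusted p = 0.710), 0.98 ± 0.50 for Klf6 (adjusted p = 1) and 0.84 ± 0.36 for Smad1 (adjusted p = 0.961), and all 8 factors were above 0. Without a filter on low counts, Sox11 alone was called at this age. At 8 months 0 of the 8 were called by any of the 3 tools, and 3 had an unadjusted p under 0.05, beside 0.957% of all genes called. Sox11 stood at 2.09 ± 0.91 (edgeR adjusted p = 0.355), Klf6 at 1.68 ± 0.51 (adjusted p = 0.138) and Smad1 at 0.98 ± 0.36 (adjusted p = 0.245). Without the filter, 2 of them, Sox11 and Klf6, were called. The share of all genes called without the filter at 1 and 8 months is not given here. These calls without the filter are therefore not read as a result about the factors.

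Whether the injury difference itself changed with age was tested by interaction terms, and 0 of the 8 factors were called by edgeR, DESeq2 or limma-voom. Over all genes, 0% were called in the joint test and in the term for 12 against 1 month, and 0.00704% in the term for 8 against 1 month. In the joint test 2 factors had an unadjusted p under 0.05: Smad1 (p = 0.0217, edgeR adjusted p = 0.516) and Klf6 (p = 0.0473, edgeR adjusted p = 0.597). The injury difference of Smad1 was larger at 12 than at 1 month by 1.503 ± 0.53 (log2; edgeR adjusted p = 0.703), and that of Klf6 by 2.01 ± 0.75 (edgeR adjusted p = 0.722). For Sox11 the gap was 2.13 ± 1.41 (edgeR adjusted p = 0.962). In the term for 8 against 1 month, 0 factors had an unadjusted p under 0.05. A call at 12 months and none at 1 month therefore does not show that the injury response differs between these ages.

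Between ages within a condition, 0 of the 8 factors were called by edgeR on all 18 libraries with TMM scaling, or by DESeq2. The 12-month libraries also differ from the others in sex. In intact neurons, 0 of 8 were called between 8 and 1 month (0.922% of all genes called), between 12 and 1 month (0.246%) or between 12 and 8 months (6.69%). At an unadjusted p under 0.05 there were 2, 1 and 2 factors. Between 8 and 1 month these were Cebpd, at -2.85 ± 1.18 (log2; edgeR adjusted p = 0.240), and Myc, at 1.25 ± 0.45 (adjusted p = 0.176). Without the third intact replicate at 12 months, 1 factor was called between 12 and 8 months. In injured neurons, 0 of 8 were called between 8 and 1 month (0.225% of all genes called), between 12 and 1 month (0.113%) or between 12 and 8 months (0.0633%), with 1, 0 and 0 factors at an unadjusted p under 0.05. The first of these was Cebpd, at -2.80 ± 1.09 between 8 and 1 month (edgeR adjusted p = 0.845). When edgeR was fitted to only the libraries compared, 3 factors were called between 12 and 1 month in injured neurons, and under scaling to the spike-ins 8 were called between 12 and 1 month in intact neurons. Limma-voom with quality weights called 1 factor between 8 and 1 month and 4 between 12 and 1 month in injured neurons. The share of all genes called in these alternative fits is not given here. Their counts of factors are therefore not read as a result about the factors.

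Across the 18 libraries, Sox11 and Smad1 followed each other most closely among the factors (Pearson r = 0.92 of log2(CPM + 1)), then Smad1 and Nfil3 (0.80), Klf6 and Smad1 (0.79) and Sox11 and Klf6 (0.77). Klf9 ran from -0.22 with Nfil3 to 0.29 with Sox11. These correlations describe 18 libraries that share condition, age and depth, and carry no test. By the same measure over all tested genes, the genes most like Sox11 included Mmp16 (0.96), a membrane-bound matrix metalloproteinase, and Tnfrsf1b (0.93), a TNF receptor. Those most like Smad1 included Bach1 (0.94) and Itpkc (0.93). For Klf6 they were Stmn4 (0.95), a stathmin that binds tubulin, Btg2 (0.92) and Slc4a8 (0.91). For Nfil3 they were Slc2a1 (0.91), the glucose transporter GLUT1, Ppfia2 (0.91) and Acsl4 (0.90).

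The most alike genes of the factors that did not pass the injury test were others. Klf7 was closest to Lmna (0.90), which encodes lamin A, Add2 (0.89) and Lss (0.86). Klf9 was closest to 4933406P04Rik (0.88), Micall1 (0.87) and Erbb3 (0.86), a neuregulin receptor of Schwann and satellite cells. Cebpd was closest to Cdk6 (0.90), Zc3hav1l (0.87) and Lrrfip2 (0.86), and Myc to Atp2c1 (0.82), March6 (0.81) and Kif26a (0.81).

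The relatives and partners of the factors were counted in the averaged injury comparison, where 10 of 76 tested list genes were called, all higher, beside 6.18% of all genes called and 5.11% called higher. With the share of CT010467.1 as a covariate 0 of the 76 were called, and under scaling to the spike-ins 69. Of the 10, Sox9, Sox6, Inhba, Fst and Fosl1 had 0 intact libraries over the filter's minimum of 0.918 CPM. They passed the filter through the injured libraries alone, which sets their direction, so their values are a description without a test. The count of 10 includes them and is not read as an excess over the share of all genes. The other called genes were Acvr1, Tgfbr1, Btg2, Dusp1 and Jun. Of the other KLF genes, 9 of 13 were tested and 0 were called by edgeR, with 2 at an unadjusted p under 0.05. The median of this list was 0.07, against 0.03 for all genes. The most abundant of them, Klf13, averaged 39.8 ± 11.9 CPM after injury and 40.6 ± 22.4 CPM without it (0.04 ± 0.24, log2; adjusted p = 0.961). Klf5 followed, at 5.5 ± 4.36 against 19.7 ± 27.2 CPM (-1.57 ± 0.81; adjusted p = 0.296). Among the KLF genes tested, Klf6 was the one called under edgeR's TMM scaling.

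Of the other SOX genes, 6 of 11 were tested and 2, Sox9 and Sox6, were called, both kept by the filter for their injured libraries. Sox9, a factor of glial and neural crest lineages, had 497 counts in the injured and 4 in the intact libraries, a ratio of 103 (95% counting interval 40.02 to 380) after scaling. That interval covers counting error only, not the spread between libraries, and is no test of Sox9. The level of Sox9 after injury was 3.75 ± 1.09 CPM, and 8 of the 9 intact libraries were at 0. Sox6 stood at 0.564 ± 0.386 against 0.0609 ± 0.170 CPM, with 7 of 9 intact libraries at 0. The SoxC relatives of Sox11 were not called: Sox4 stood at -0.76 ± 0.49 (adjusted p = 0.421) and Sox12 at 0.91 ± 0.46 (adjusted p = 0.279).

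Satellite glia markers were measured beside these values. Their summed level was 114 to 2020 CPM in injured libraries (median 688) and 46.6 to 742 CPM in intact ones (median 138), with 0 of 7 called. The sums were separate at 1 month (injured 1284 to 2020 CPM, intact 97.3 to 611 CPM) and overlapped at 8 and 12 months. Sox10, 1 of these 7 markers, was at 2.13 ± 2.21 against 1.14 ± 1.03 CPM (0.27 ± 0.62, log2; edgeR adjusted p = 0.861). Schwann cell markers summed to 323 to 572 CPM (median 410) against 207 to 897 CPM (median 374), with 0 of 5 called and Mag at 0 in 16 of 18 libraries. Fibroblast markers summed to 17.9 to 63 CPM (median 34.8) against 0 to 72.2 CPM (median 5.91), with 1 of 4 called, Col1a2. The fibroblast sums were separate at 1 month (31.9 to 63 against 3.11 to 7.87 CPM) and at 8 months (17.9 to 53.2 against 1.19 to 11.8 CPM), and overlapped at 12 months. Immune markers had medians of 3.45 and 1.85 CPM, with 0 of 3 called, and endothelial markers of 0.583 and 0.618 CPM, with none tested. The part of such cells in the injury differences was not tested.

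Smad1 sits in the BMP and TGF-beta pathway, in which ligands bind paired receptors that phosphorylate SMAD proteins. Of 28 tested genes of 35 listed, 4 were called, all higher, beside 6.18% of all genes called and 5.11% called higher. Of these 4, Inhba and Fst passed the filter through injured libraries alone, so the count is not read as an excess over that share. Among the ligands 1 of 6 tested was called: Inhba, a subunit of activin, had 96 counts in 8 of 9 injured libraries and 0 in the intact ones, at least 26.6-fold higher against a floor of 3 counts over the intact group. Among the receptors it was 2 of 9. Acvr1, a type I receptor of BMPs, stood at 16.6 ± 10.3 against 3.13 ± 2.66 CPM (2.61 ± 0.50, log2; edgeR adjusted p = 0.00397). Tgfbr1, the type I receptor of TGF-beta, stood at 13.6 ± 7.66 against 4.40 ± 2.25 CPM (1.46 ± 0.38; edgeR adjusted p = 0.0277).

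The main BMP receptors were not called: Bmpr1a stood at 12.2 ± 4.14 against 11.8 ± 4.96 CPM, and Bmpr2 at 91.9 ± 19.1 against 101.6 ± 54.4 CPM. Of the other mediators, 0 of 5 were called. Smad5, which acts beside Smad1, stood at 0.87 ± 0.54 (log2; edgeR adjusted p = 0.401), and Smad9 at -0.29 ± 0.19 (adjusted p = 0.430). Among the inhibitors 1 of 4 was called: Fst, which encodes follistatin, a secreted protein that binds activins and some BMPs, had 3424 counts in injured and 12 in intact libraries, and 24.8 ± 16 against 0.0879 ± 0.166 CPM. Of the targets Id1 to Id4, 0 of 4 were called, with 1 at an unadjusted p under 0.05, and, relative to the bulk of genes, all 4 lay under 0, from -1.06 for Id1 to -0.13 for Id2 (log2). Under scaling to the spike-ins, the median of all genes moved from 0.03 to 2.90 (log2), so signs of small changes hold for the TMM scale only.

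**Figure D3:**
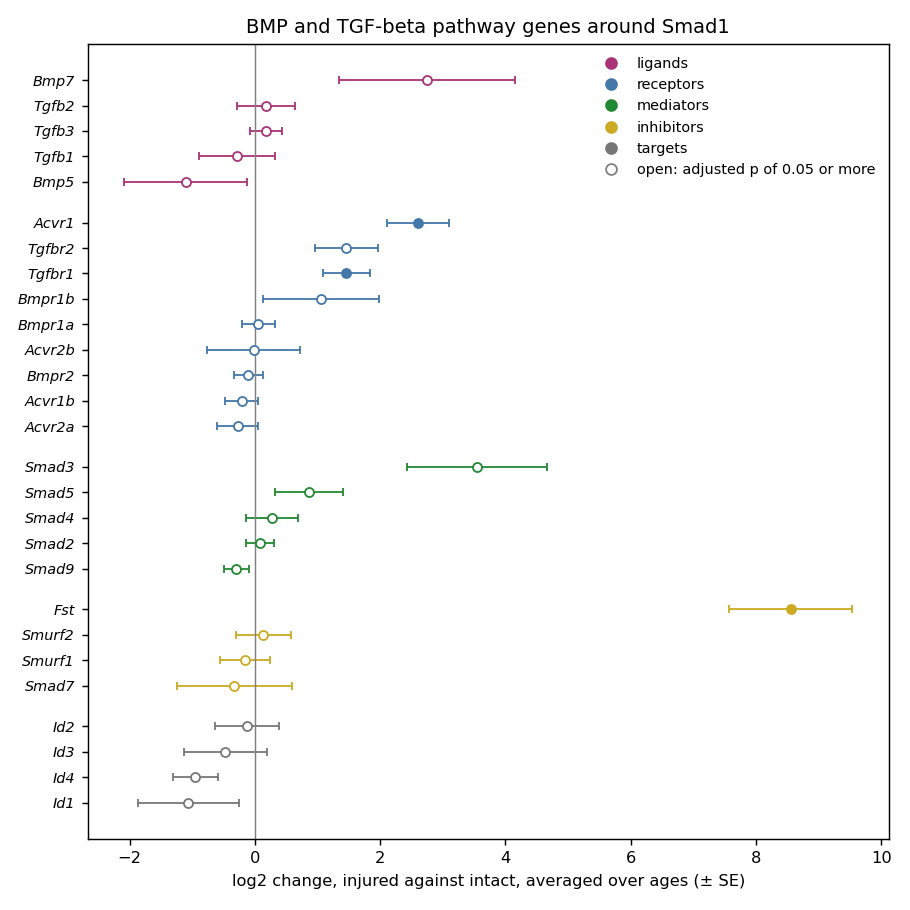
The log2 change after injury, averaged over ages (edgeR, with SE as bars), is plotted for the tested genes of the BMP and TGF-beta pathway by role, without Inhba, whose intact libraries were all at 0. Filled points passed an adjusted p of 0.05, as Acvr1, Tgfbr1 and Fst do, although Fst was kept by the filter for its injured libraries alone. The 4 targets lie left of 0 on this TMM scale.

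Among the partners of Nfil3 and Cebpd, 6 of 8 were tested and 0 were called, with 0 at an unadjusted p under 0.05 and all 6 under 0 on the TMM scale. Ddit3, the most abundant, stood at 18.8 ± 7.91 against 23.8 ± 8.10 CPM, and Tef at 13.2 ± 2.81 against 13.9 ± 2.84 CPM. Of the MYC network 9 of 11 were tested and 0 called, with 1 at an unadjusted p under 0.05. Mlxip stood at 18.9 ± 3.54 against 25.4 ± 11.5 CPM, and Max, the dimer partner of Myc, at 19.3 ± 4.25 against 16.3 ± 4.58 CPM.

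Immediate early genes can also be induced by dissociation, which all libraries went through. Of this list, 18 of 18 were tested and 4 called, all higher after injury: Fosl1, kept by the filter for its injured libraries (1.39 ± 0.772 against 0.0864 ± 0.150 CPM), Btg2 (1.82 ± 0.37, log2; edgeR adjusted p = 0.00673), Dusp1 (1.28 ± 0.32; 0.0219) and Jun (1.21 ± 0.34; 0.0419). Jun, the AP-1 subunit tied to axon regrowth, stood at 140.5 ± 45.3 against 61.7 ± 37.6 CPM. Fos, the usual mark of recent stimulation, was at 21 ± 9.26 against 19.7 ± 14.8 CPM (0.16 ± 0.44; adjusted p = 0.896). The median of the list was 0.31. Over all genes tested, 6.18% were called in this comparison and 5.11% were called higher. With the share of CT010467.1 as a covariate, 0 of the list genes were called.

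The labels tie no single cell to an animal. A group of cells was therefore taken as 1 sample, and differences between groups were not tested. Levels are CPM of the counts outside each cell's share of CT010467.1, a scale apart from that of the low-input libraries, and intervals cover counting error only. Of the 69 cells, 1 injured cell of 1 year had no counts. Depth outside that feature had medians of 1033580 counts in injured and 291824 in intact cells at 1 month, and of 3571620 and 7145020 at 1 year. Spike-ins also differed, with means of 5212280 and 8455720 counts per cell at 1 month and 15.9 and 24.4 at 1 year. At 1 month pooled Atf3 was 805 CPM in injured and 72.4 CPM in intact cells, with per-cell medians of 87.3 and 35.6 CPM. One injured cell held 49.4% of its counts, and the pool was 457 CPM without it. At 1 year Atf3 was 80.6 CPM in the cells labelled injured (42.5 CPM without 1 cell) and 62.5 CPM in intact cells, and Sprr1a 5.40 against 0.178 CPM, so the 1-year label is used as given and no direction is drawn from it. Marker sums per cell spanned wide ranges: those of satellite glia reached 52858 CPM in 1 cell labelled injured at 1 year, and those of neurons fell to 0 in 1 intact cell at 1 month.

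Sox11 pooled to 55.5 CPM in injured cells at 1 month (95% Poisson interval 53.5 to 57.6) and 8.86 CPM in intact cells (7.92 to 9.89). Injured cells ran from 0 to 236 CPM with a median of 4.90, and intact cells from 0 to 31.7 CPM with a median of 0. One injured cell held 46.5% of the group's Sox11 counts, and without it the pooled value was 33.4 CPM. One intact cell held 58.7%, and without it the pooled value was 4.51 CPM. The median cell thus lay far under the pooled value in both groups. At 1 year it pooled to 9.57 CPM in cells labelled injured and 3.07 CPM in intact cells, and to 6.02 and 1.30 CPM without the top cell of each group (39.5% and 65.3% of the counts).

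Counted by cell, 15 of 21 injured and 7 of 18 intact cells at 1 month had at least 1 Sox11 count (71.4%, exact 95% interval 47.8% to 88.7%, against 38.9%, 17.3% to 64.3%). After thinning each cell to 200000 counts, with 5 injured and 8 intact cells too shallow and left out, 12 of 16 and 6 of 10 cells kept a count (75% against 60%). With at least 10 thinned counts it was 5 of 16 against 0 of 10. At 1 year thinning left 7 of 16 cells labelled injured and 1 of 8 intact cells with a count (43.8% against 12.5%), while the unthinned shares were 57.1% and 75%, in the opposite order. All 12 thinned injured cells with Sox11 at 1 month also had Atf3, as did 5 of the 6 intact ones, beside 14 of 16 and 8 of 10 cells with Atf3 whatever their Sox11. At 1 year 5 of the 7 cells with Sox11 that were labelled injured had Atf3, beside 14 of 16 cells.

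**Figure D4:**
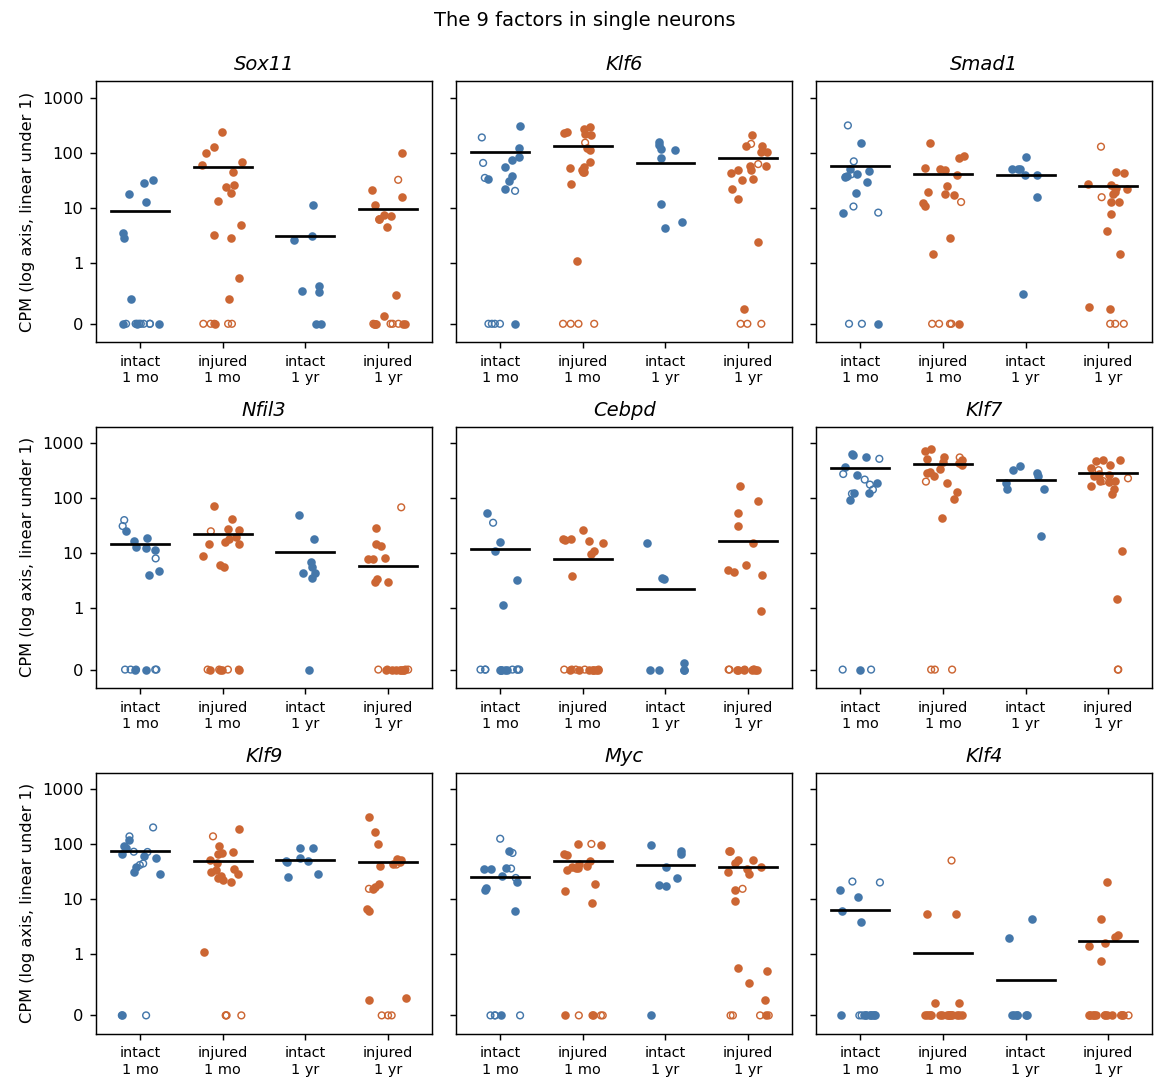
Each panel plots 1 factor over single cells, with CPM outside CT010467.1 on a log axis that is linear under 1; points are cells, filled where the cell held at least 200000 such counts, and black lines are pooled values. Klf7 is present in nearly all deep cells, while Sox11, Cebpd and Klf4 have many cells at 0.

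Klf7 was the most widely detected factor in cells. After thinning it was present in 16 of 16 injured and 9 of 10 intact cells at 1 month, and in 15 of 16 and 8 of 8 at 1 year. Its pooled levels were 422 and 363 CPM at 1 month and 291 and 213 CPM at 1 year, for injured and intact labels. Klf6 was present in 15 of 16 and 9 of 10 thinned cells at 1 month and in 14 of 16 and 7 of 8 at 1 year, with pooled levels of 134 and 103 CPM at 1 month and 79.3 and 66.1 CPM at 1 year. In the intact cells of 1 month, 1 cell held 55.8% of the Klf6 counts, and the pooled value was 56.4 CPM without it.

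Smad1, which was higher in every injured low-input library of an age, did not show that order in the pooled cells of 1 month. At 1 month the injured cells pooled to 40.3 CPM and the intact cells to 56.1 CPM, and at 1 year to 24.9 and 38.6 CPM. The per-cell medians were 16.6 and 36 CPM at 1 month, and 15.5 and 44.6 CPM at 1 year, where no order is read from the labels. In each 1-month group 1 cell held much of the counts (41.1% and 50.2%), and without those cells the pools were 26.7 and 34.4 CPM. Smad1 was present in 14 of 16 injured and 9 of 10 intact thinned cells at 1 month.

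Nfil3 pooled to 22.2 CPM in injured and 14.9 CPM in intact cells at 1 month, and to 5.82 and 10.8 CPM at 1 year (6.48 CPM for the intact cells without the top one). Cebpd pooled to 8.01 and 12.1 CPM at 1 month, where 1 intact cell held 76.4% of the group's counts (3.46 CPM without it), and to 16.6 and 2.29 CPM at 1 year (0.847 CPM for the intact cells without the top one). Myc pooled to 50.5 and 25.8 CPM at 1 month and to 38.2 and 41.8 CPM at 1 year. Klf9 pooled to 49.9 and 76.9 CPM at 1 month and to 48 and 50.6 CPM at 1 year. Klf4 was the rarest, with a count in 1 of 16 and 2 of 10 thinned cells at 1 month, and in 3 of 16 and 2 of 8 at 1 year. A thinned cell held a median of 7 of the 9 factors in injured and 6.5 in intact cells at 1 month, and of 6 and 6.5 at 1 year, with a range from 0 to 9 over the groups.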

How the data were processed

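The authors deposited 1 table of raw fragment counts per gene, with 87 count columns, 1 per library name, for 136 RNA samples; 45 names had been deposited more than once and count as 1 library. Per the file headers, counting used featureCounts 1.5.2 on paired ends, without strand, over exons of GENCODE vM16. The submitters' processing notes name Trim Galore, STAR and mm10. The deposited table's other column used here, summed exon length in bp, set the values per kilobase. Methylation, measured in 94 samples, is not analysed here.

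The members and gene lists were chosen with earlier results of these data known. Spike-ins (92 of 53370 features) were removed, genes filtered with filterByExpr, and libraries scaled by TMM. The 18 low-input libraries were fitted together by the quasi-likelihood method, robust option, with a mean per group (edgeR 4.0.16, R 4.3.3; 14212 genes, 12 residual degrees of freedom, common biological coefficient of variation 0.543). It was tested on simulated data. Calls were made at p under 0.05 after Benjamini-Hochberg adjustment in each of 13 two-sided comparisons. SE is the change over the root of F. Nothing in the labels says the replicates came from separate animals, so p-values measure the spread between these libraries. Alternatives used DESeq2 1.42.0, limma 3.58.1, other scalings, filters, covariates and samples. Named besides the members were the 3 genes most alike by Pearson r (1 gene is not reported here), and per list the called genes, up to 4, or the 2 most abundant where fewer than 2 were called; others named in the text were chosen after their values were seen. Cells were thinned once to 200000 counts. SciPy 1.17.1 gave the intervals. PCR copies without identifiers are not independent molecules.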

Additional observations from a re-analysis of the deposited data

Results flagged for a closer look

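In the 8 intact cells of 1 year, the one single-cell group small enough for the check, 4 of the 9 factors had a highest cell far from all others by Dixon's criterion. For Sox11 that cell stood at 11 CPM and the next at 3.09 CPM. For Cebpd the values were 15.6 and 3.61 CPM, for Nfil3 50.7 and 17.9 CPM, and for Klf4 4.38 and 1.96 CPM. For normally distributed values, chance alone flags about 1 in 20 groups. That rate does not hold here, because values per cell are skewed, with a Klf4 count in 2 and a Cebpd count in 4 of the 8 cells. All 9 factors were also read in the same 8 cells, so 4 of 9 is not set against chance. The cause was not tested.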

How the results depend on the processing

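The averaged injury calls of Sox11, Klf6 and Smad1 each stood in 25 of 26 alternatives and were lost with the share of CT010467.1 as a covariate; Nfil3 was lost in 10 of 26. Of the factors, main 4 in the average and 3 at 12 months, 8 and 8 were called under ERCC scaling, as were 8 for intact neurons at 12 against 1 month, and 0 and 0 with the covariate. ERCC scaling raised the genes called in the average from 878 to 13493, DESeq2 gave 1548, no filter 1722 and the covariate 11. Without the filter 1 factor was called at 1 month and 2 at 8 months. With only the libraries compared, 0 were called at 12 months and 3 for injured neurons at 12 against 1 month. In injured neurons limma-voom called 4 at 12 against 1 month and 1 at 8 against 1 month. The counts at single ages and between ages stand without the share of all genes called in those fits. Leaving out 1 library gave 3 to 5 factors in the average, 1 to 3 at 12 months (1 without the second injured replicate of that age) and 0 to 1 for intact neurons at 12 against 8 months. List genes called, 10 in the main result, were 69 under ERCC scaling, 17 without the filter, 0 with the covariate and 6 to 13 by library (6 without the first injured replicate at 1 month).

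Replicate numbers were not taken to pair libraries: same-numbered deviations correlated at 0.0993, 0.368 and 0.330 at 1 month, -0.454 to -0.0212 at 8 months and -0.104 to 0.0892 at 12 months over 2429 genes, although 6 of 6 libraries at 1 month correlated best with their own number (0 of 6 at 8 and 2 of 6 at 12 months). With the replicate block within each age, 3 factors were called in the average and 1 at 12 months, and 329 of all genes in the average; with the block at 1 month alone, 3 and 2, and 648. At 12 months the replicate block within each age gave adjusted p of 0.0526 for Smad1 (log2 2.26) and 0.143 for Sox11, and the block at 1 month 0.0673 for Sox11.

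Signs turned for factors that were not called, and the cause was not tested. Klf9 in the average became 2.90 (ERCC), 0.24 (limma-voom), 0.017 (no filter), 0.14 (replicate block within each age) and 1.19 (covariate), and -0.12 to 0.26 by library. At 12 months it became 5.77, 0.47 (limma-voom) and 2.10 (covariate), and -0.59 to 0.56 by library. At 8 months it became 0.93 (ERCC) and 0.60 (covariate), and -0.66 to 0.44 by library. Klf7 ran from -0.22 to 0.25 at 1 month and from -0.0026 to 0.37 at 8 months by library. Cebpd at 12 months became -0.77 (covariate). Myc at 8 months became 1.18 (ERCC), and -0.66 to 0.16 by library.

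In cells, 4 of 36 shares left their interval after thinning and 6 of 36 at 10 counts; 36 of 36 pooled levels moved with all endogenous counts as denominator and 35 of 36 with the median over cells. Depth limits Klf4, Cebpd and the intact 12-month libraries, and shares from 8 to 21 cells carry wide intervals.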
